A study of Homo sapiens with 2 samples.

Results

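The 10 miRNAs described here are both arms of 5 hairpins that lie in introns of protein-coding genes, namely hsa-miR-140-5p and -3p, hsa-miR-151a-5p and -3p, hsa-miR-361-5p and -3p, hsa-miR-455-5p and -3p, and hsa-miR-574-5p and -3p. They were chosen by name from the 2549 human miRNAs on the array, because both arms gave a signal on both arrays. That their arms were measured is therefore how they were selected and not a finding. They are 10 of 229 miRNAs measured on both arrays, and their 5 hairpins are among 14 hairpins with both arms measured there. All 20 of their probes were followed, 2 for each arm, with 10 spots a probe.

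The RNA came from HepG2, an established human liver tumour line that the study describes as derived from a hepatocellular carcinoma. Cells received an adenoviral vector, either the control Ad-NC or Ad-uc.372, named for the ultraconserved transcript uc.372, and total RNA was taken 48 h later. Each condition was measured on 1 array, so nothing here has a replicate check, no test was made, and precision is limited by the number of arrays. The spread quoted is the technical SD over a probe's spots. The sample labels name the vector without saying whether it raises or blocks the transcript. The text of the study and the title of the data say overexpression, whereas the axes of a supplementary scatter plot carry the name of the inhibitor vectors, so the direction of each difference rests on the former. All differences are log2 values of Ad-uc.372 minus Ad-NC, and neither the labels nor the methods say whether cultures were pooled.

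A miRNA hairpin is cut from a longer primary transcript in the nucleus by Drosha with DGCR8, and Dicer then removes the loop in the cytoplasm. The resulting duplex holds an arm from either side of the stem, called 5p and 3p, and usually 1 of them is loaded into Argonaute while its partner is degraded. Because both arms begin as equal parts of the same molecule, a change in transcription or in cutting of the hairpin acts on both, whereas loading and decay can act on each arm alone. An intronic hairpin on the strand of its host gene can be made from the host's own primary transcript. MIR140 lies in WWP2, which encodes a ubiquitin ligase, and miR-140 is best known from cartilage. MIR151A lies in PTK2, the gene of focal adhesion kinase, MIR361 in CHM, which encodes a Rab escort protein, MIR455 in the fibrillar collagen gene COL27A1, and MIR574 in FAM114A1. The array measured mature miRNAs and gives no value for the hairpins, the primary transcripts or the host mRNAs.

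The mature sequences of 8 of the 10 arms were matched by name in RefSeq on GRCh38.p14. They are shown because both arms of a hairpin carry unlike seeds, so the arms' differences below concern different sets of possible targets. Each reads 5′ to 3′, with the seed, bases 2 to 8, in capitals.
hsa-miR-140-5p: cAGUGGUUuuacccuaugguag
hsa-miR-140-3p: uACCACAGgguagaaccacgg
hsa-miR-361-5p: uUAUCAGAaucuccagggguac
hsa-miR-361-3p: uCCCCCAGgugugauucugauuu
hsa-miR-455-5p: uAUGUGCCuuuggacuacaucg
hsa-miR-455-3p: gCAGUCCAugggcauauacac
hsa-miR-574-5p: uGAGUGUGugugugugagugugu
hsa-miR-574-3p: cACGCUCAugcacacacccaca

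The 8 seeds were all different, and no other mature miRNA of the same RefSeq table shared any of them. The arms were 21 to 23 bases long. The arms of miR-574 had the most one-sided composition. In hsa-miR-574-5p 21 of 23 bases were G or U, in a nearly regular repeat, and in hsa-miR-574-3p 18 of 22 bases were A or C. In GRCh38.p14 the arms of miR-574 lie at chr4:38868056-38868078 and chr4:38868092-38868113 on the plus strand. Those of miR-455 lie at chr9:114209449-114209470 and chr9:114209487-114209507, and those of miR-140 at chr16:69933103-69933124 and chr16:69933142-69933162, also on the plus strand. Those of miR-361 lie on the minus strand of the X chromosome, the 5p arm at chrX:85903681-85903702 and the 3p arm at chrX:85903641-85903663.

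The hairpins of miR-574 and miR-455 are printed in full, with both mature arms in capitals, because their arms differed most in what follows.
MIR574: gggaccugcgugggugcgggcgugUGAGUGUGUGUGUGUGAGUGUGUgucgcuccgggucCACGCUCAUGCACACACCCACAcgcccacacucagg
MIR455: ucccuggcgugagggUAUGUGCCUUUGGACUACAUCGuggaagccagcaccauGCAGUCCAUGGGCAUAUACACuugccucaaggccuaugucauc

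MIR574 spans chr4:38868032-38868127 and MIR455 spans chr9:114209434-114209529, both in GRCh38.p14 on the plus strand. In the structure of lowest predicted free energy, 20 bases of the 23-base 5p arm of MIR574 paired with the 3p arm, and 13 bases lay between the arms. The predicted energy of that hairpin was -60.20 kcal per mol, against -54.40 for MIR140, -42.10 for MIR455 and -31.40 for the shorter MIR361. In MIR455 and in MIR361, 16 bases of the 5p arm paired with the 3p arm, and in MIR140 this was 19. All 4 of these hairpins lie on the strand of their host. MIR574 begins 226 bases after the annotated start of FAM114A1. MIR140 begins 8042 bases after the nearest upstream of the 3 annotated starts of WWP2. MIR455 begins 53.9 kb after the start of COL27A1, and MIR361 begins 144 kb after the nearest of 4 starts of CHM. Exon borders were not used here, so that the hairpins lie in introns is background and was not checked.

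Across the array, 6.87% of probes with Ad-NC and 7.62% with Ad-uc.372 were well above background, meaning that at least 50% of their spots carried the flag that the scanner software sets. The dimmest flagged spot was at 21.1 intensity units on the Ad-NC array and 17.3 on the Ad-uc.372 array, and dimmer spots were raised to that limit. Log2 signals were scaled by subtracting each array's 75th percentile over probes measured on both arrays, equal to 304.6 intensity units on the Ad-NC array and 356.5 on the Ad-uc.372 array. Of 4 miRNAs fixed as hepatocyte markers, miR-192-5p and miR-194-5p were well above background on both arrays, whereas miR-122-5p and miR-885-5p were not on either. None of 11 markers of muscle, blood, neural, endothelial and stromal cells was well above background. In such a bulk sample, fewer cells that make a miRNA and less of it per cell cannot be told apart.

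Of the 10 arms, 9 were lower with Ad-uc.372, beside 73.8% of all 229 measured miRNAs, and hsa-miR-455-5p was higher. The 9 include hsa-miR-140-5p at -0.0012, and from 2 to 10 arms were lower depending on the setting. The lowest 2 arms were those of miR-574. hsa-miR-574-3p was 2.36-fold lower and hsa-miR-574-5p 1.62-fold lower, and they were the members past the 1.5-fold threshold that the methods of the study name. Over all 229 measured miRNAs, 3.93% were past it in either direction and 2.62% were past it on the lower side. The median difference of the 10 arms was -0.32, against -0.17 over all measured miRNAs, whose SD was 0.29. Without miR-574 the median of the other 8 arms was -0.26, and they ranged from -0.41 to 0.22. Of these 8, 7 lay within 1 SD of the median of all measured miRNAs.

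**Figure D1:**
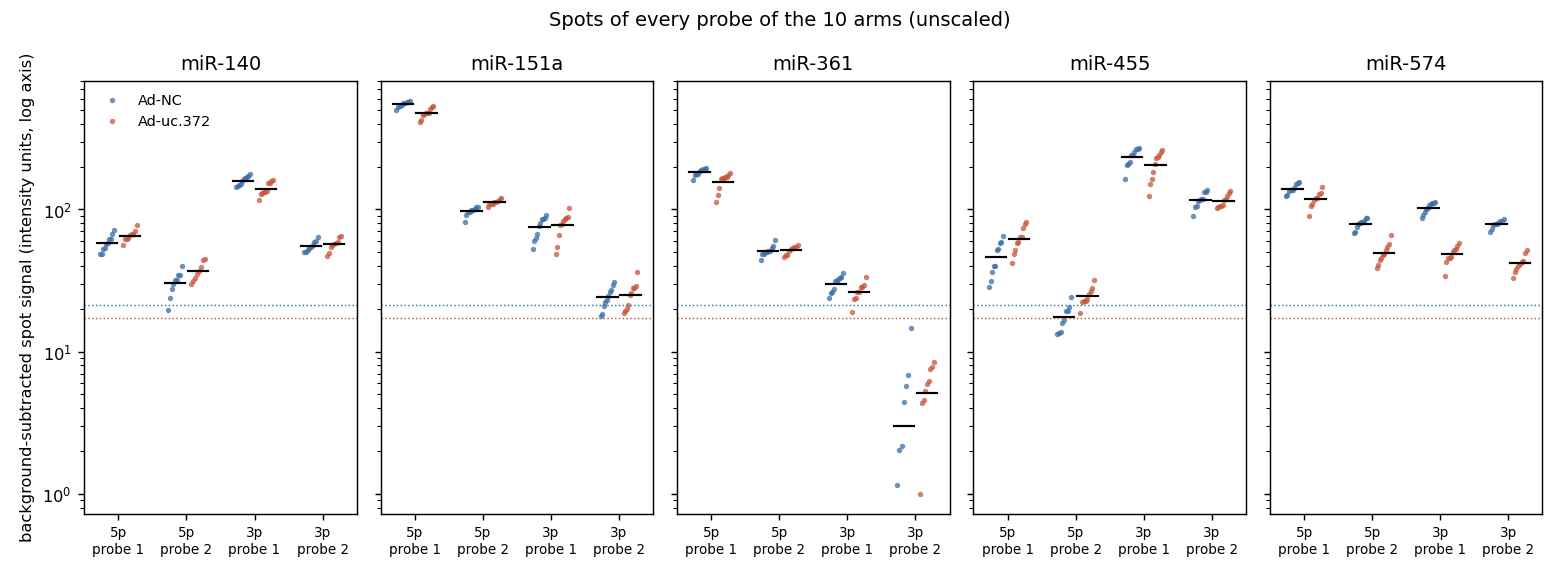
Signal of each spot after background subtraction, before scaling between arrays, on a log axis in intensity units, for both probes of each arm (probe 1 is the brighter with Ad-NC; points are spots, black bars their mean, dotted lines the dimmest flagged spot of each array; spots at or below 0 are not drawn). For 3 of the 4 miR-574 probes no Ad-uc.372 spot reached the dimmest Ad-NC spot, and the second probe of hsa-miR-361-3p lay below both limits. Such separation of spots was not counted over all probes of the array.

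hsa-miR-574-3p showed the largest difference of the 10. Its brighter probe gave signals from 87.1 to 113 with a median of 105 over 10 spots with Ad-NC, and from 34.3 to 58.2 with a median of 48.4 over 10 spots with Ad-uc.372. Its dimmer probe gave 69.9 to 86.1 with a median of 78.6 over 9 spots, and 32.9 to 51.5 with a median of 41.1 over 9 spots. On either probe every spot with Ad-uc.372 was dimmer than every spot with Ad-NC before scaling. The spots are technical repeats on 1 array per condition. How often spots separate in this way over all probes was not counted, so the separation is a description of these probes only. The scaled log2 differences of the probes were -1.33 and -1.16, and their mean was -1.24 with a combined spot SD of 0.24. Only miR-4668-5p had a lower difference among the 229 miRNAs, at -1.85.

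The 5p arm of the same hairpin, hsa-miR-574-5p, was also lower, by less. Its brighter probe gave 124 to 157 with a median of 138 over 9 spots with Ad-NC, and 89.8 to 143 with a median of 121 over 9 spots with Ad-uc.372. On this probe 3 of the 9 Ad-uc.372 spots reached the Ad-NC range before scaling. Its dimmer probe gave 68.0 to 87.6 with a median of 80.5, and 38.4 to 65.7 with a median of 48.4, over 10 spots each, and there the spots did not overlap. The scaled differences were -0.48 on the brighter and -0.91 on the dimmer probe. Their mean of -0.70, with a combined spot SD of 0.25, was the fifth lowest of 229. Its rank was 30 with the brightest probe alone, where hsa-miR-361-5p at -0.46, hsa-miR-151a-5p at -0.44 and hsa-miR-455-3p at -0.43 lay close to its -0.48. Among the 279 miRNAs detected by the scanner software, it ranked 12 with the total signal per miRNA and 11 with the deposited values, and hsa-miR-574-3p ranked 7 and 6. Just inside the 1.5-fold threshold on the lower side lay miR-4306, at -0.59, and just outside it miR-4507, at -0.58. The brighter probe alone was short of 1.5-fold, and relative to the median of all measured miRNAs hsa-miR-574-5p was at -0.53, also short of it, and the 3p arm at -1.07.

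For miR-455 the arms lay on opposite sides of 0. The single probe of hsa-miR-455-5p that was well above background on both arrays gave 28.3 to 65.3 with a median of 46.1 with Ad-NC, and 42.0 to 81.4 with a median of 61.4 with Ad-uc.372, over 10 spots each. The ranges overlapped, with 3 of 10 Ad-uc.372 spots above the brightest Ad-NC spot. The scaled difference was 0.22 with a spot SD of 0.52, so it was smaller than the spread between spots. The other probe of this arm was flagged on 1 of 9 spots with Ad-NC and on 9 of 9 with Ad-uc.372. Its mean signal was 17.4 ± 3.74 (SD, n = 9 spots) and 24.6 ± 3.81 (SD, n = 9 spots). It did not enter the difference, because on the Ad-NC array most of its spots lay under the limit.

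The 3p arm of this hairpin was brighter and its difference was below 0. The brighter probe of hsa-miR-455-3p gave 164 to 272 with a median of 242 with Ad-NC, and 124 to 263 with a median of 220 with Ad-uc.372. The dimmer gave 89.8 to 136 with a median of 117, and 103 to 135 with a median of 112. The ranges overlapped on both probes. The mean scaled difference of -0.34 was as large as its combined spot SD of 0.35.

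The arms of miR-140 differed from each other in the same direction as those of miR-455. hsa-miR-140-5p had the smallest difference of the 10, -0.0012, with 0.30 as its combined spot SD. Its brighter probe had a mean signal of 58.2 ± 7.67 (SD, n = 10 spots) with Ad-NC and 65.5 ± 5.93 (SD, n = 9 spots) with Ad-uc.372, and its probes gave -0.051 and 0.049. hsa-miR-140-3p had a difference of -0.31, beyond its combined spot SD of 0.19. Relative to the median of all measured miRNAs this arm was at -0.14, within that SD. Its brighter probe had a mean signal of 159 ± 11.3 (SD, n = 10 spots) and 140 ± 14.7 (SD, n = 10 spots), and its dimmer probe 55.6 ± 4.72 (SD, n = 9 spots) and 56.7 ± 5.96 (SD, n = 9 spots). The spots of both probes overlapped between arrays before scaling. After scaling no Ad-uc.372 spot of the brighter probe reached the Ad-NC range. The same held for the brighter probes of hsa-miR-151a-5p and hsa-miR-361-5p and for all 4 probes of miR-574. Without scaling every difference was 0.23 higher. Such separation of spots was not counted over all probes of the array, so it cannot be called unusual for these arms.

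In miR-361 both arms were lower by like amounts. hsa-miR-361-5p had a difference of -0.34 with a combined spot SD of 0.20, and its brighter probe had a mean signal of 183 ± 10.7 (SD, n = 9 spots) with Ad-NC and 157 ± 22.1 (SD, n = 10 spots) with Ad-uc.372. hsa-miR-361-3p was the dimmest arm with a measured difference, -0.41 with a spot SD of 0.31. It rests on 1 probe with signals of 23.7 to 35.7 and a median of 31.5 over 10 spots with Ad-NC, and of 19.0 to 33.3 and a median of 26.3 over 9 spots with Ad-uc.372. Its other probe, with medians of 2.10 and 5.60, had no flagged spot on either array. Relative to the median of all measured miRNAs hsa-miR-361-5p was at -0.17 and hsa-miR-361-3p at -0.25, each within its spot SD.

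miR-151a gave the brightest probe of the set. The brighter probe of hsa-miR-151a-5p had a mean signal of 551 ± 26.5 (SD, n = 9 spots) with Ad-NC and 477 ± 38.9 (SD, n = 10 spots) with Ad-uc.372. Its other probe went the other way before scaling, at 96.9 ± 7.04 (SD, n = 9 spots) and 112 ± 4.70 (SD, n = 9 spots), and there all 9 Ad-uc.372 spots were above the brightest Ad-NC spot. After scaling these probes gave -0.44 and -0.0093, so their mean of -0.22 hides a disagreement wider than its combined spot SD of 0.13. hsa-miR-151a-3p had a difference of -0.20 with a combined spot SD of 0.40. Its dimmer probe lay near the limit, with 7 of 10 spots flagged with Ad-NC and 10 of 10 with Ad-uc.372.

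**Figure D2:**
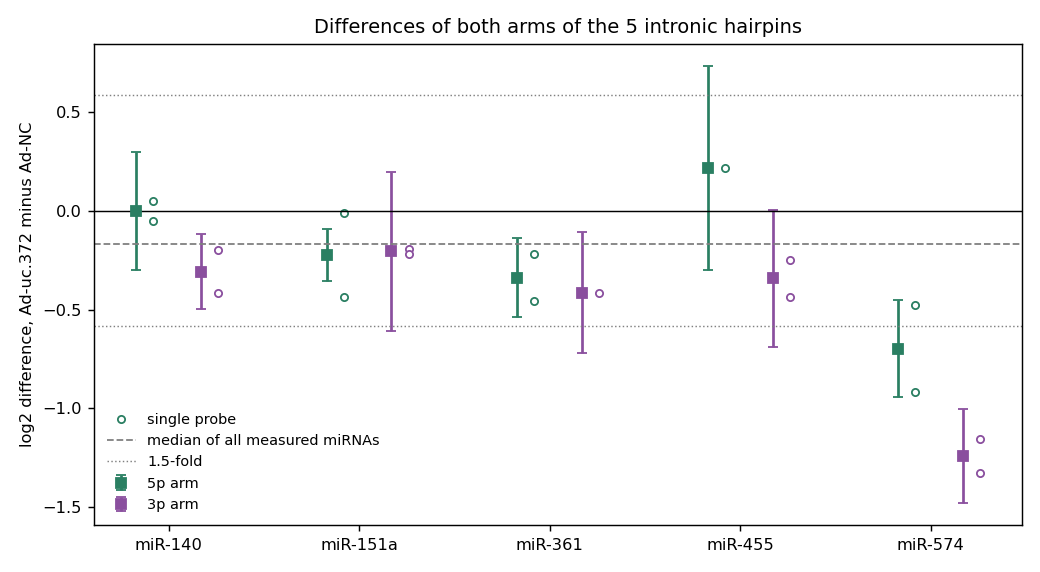
Scaled log2 difference, Ad-uc.372 minus Ad-NC, of the 5p arm (green) and the 3p arm (purple) of each hairpin; squares are means over probes, bars the combined spot SD, open circles single probes, the dashed line the median of all 229 measured miRNAs and dotted lines 1.5-fold. Both arms of miR-574 lie beyond the lower dotted line, and hsa-miR-455-5p is the arm above 0.

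The arm ratio was taken on each array as the log2 signal of the 5p arm minus that of the 3p arm. It depends on how brightly each probe shines and does not give the relative amounts of the arms. Its change between arrays is the difference of the arms' differences, and any scaling that moves a whole array by the same amount drops out of it. With Ad-NC the ratio was 2.44 for miR-151a, 1.70 for miR-361, 0.23 for miR-574, -1.17 for miR-140 and -1.87 for miR-455. With Ad-uc.372 it was 2.42, 1.78, 0.77, -0.86 and -1.31 in that order. In these means over probes the brighter arm of each hairpin was the same on both arrays. Single probe pairs varied, and 1 pair of miR-574 went from -0.38 to 0.033, while the pairs of miR-140 lay on both sides of 0 on either array.

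The ratio moved most in miR-455, by 0.56, and in miR-574, by 0.54, towards the 5p arm in both. For miR-574 this was beyond the combined spot SD of both arms, 0.34, though not in every alternative setting given below. For miR-455 it was within that SD, 0.62, most of which came from hsa-miR-455-5p. miR-140 moved by 0.31 with a combined spot SD of 0.36, miR-361 by 0.077 with 0.37, and miR-151a by -0.018 with 0.42. No ratio of the 5 moved by 1.5-fold. Across the 14 hairpins with both arms measured, 2 did, or 14.3%. Taken probe by probe, the change was above 0 for all 4 probe pairs of miR-574, from 0.24 to 0.85, for all 4 of miR-140, from 0.15 to 0.46, and for both pairs of miR-455, 0.47 and 0.65. For miR-151a 2 of 4 pairs were above 0 and for miR-361 1 of 2, so no direction can be given for these. A change above 0 was common, with a median of 0.11 over the 14 hairpins. In order of the change, miR-4485 at rank 10 of 14 was still above 0, at 0.020. A move towards the 5p arm was therefore not particular to miR-574, miR-455 or miR-140. Probe pairs of other hairpins were not counted.

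**Figure D3:**
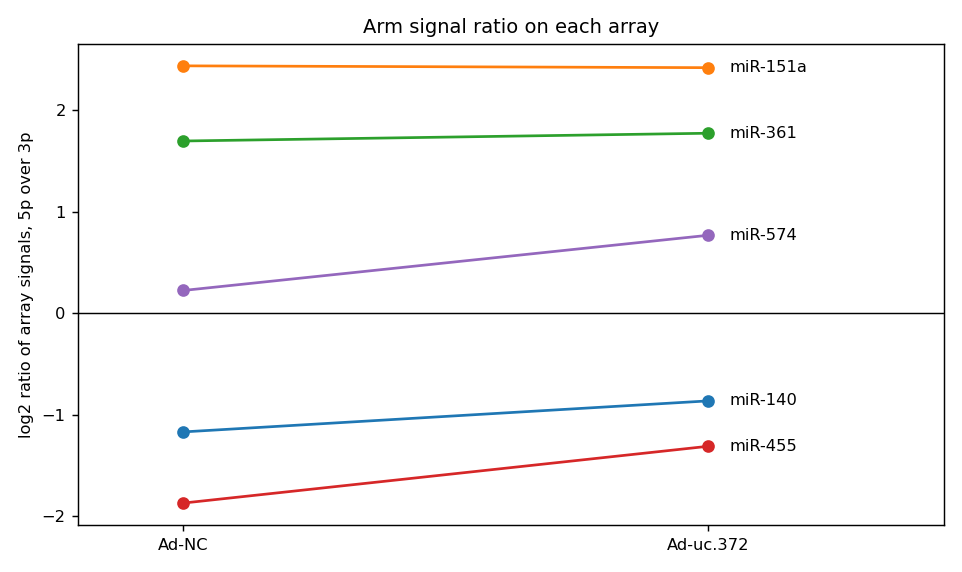
Log2 ratio of array signals of the 5p over the 3p arm on the Ad-NC and the Ad-uc.372 array; each line is 1 hairpin. The lines of miR-574 (0.23 to 0.77), miR-455 (-1.87 to -1.31) and miR-140 (-1.17 to -0.86) rise, and those of miR-361 and miR-151a are nearly level.

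Set among the 14 hairpins, none of the 5 had the furthest change of the arm ratio in either direction. In the ratio itself miR-455 and miR-140 were the lowest on both arrays, and 12 of the 14 had the brighter 5p arm with Ad-NC. The median absolute change was 0.14, and miR-192, at 0.79, and miR-21, at 0.62, moved further towards the 5p arm than miR-455 and miR-574. In the other direction the furthest 2 outside the 5 were miR-34a, at -0.42, and miR-532, at -0.049. The changes of miR-21 and miR-34a were within their combined spot SDs of 0.92 and 0.75. By the mean of both arms miR-574 was the lowest of the 14, at -0.97, and it was the 1 hairpin whose arms were both past 1.5-fold. Over the 14 hairpins the arms' differences had a Pearson correlation of 0.54 and a Spearman correlation of 0.23, which became 0.29 and 0.038 without miR-574. All points share both arrays and their scaling, so this describes these arrays.

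**Figure D4:**
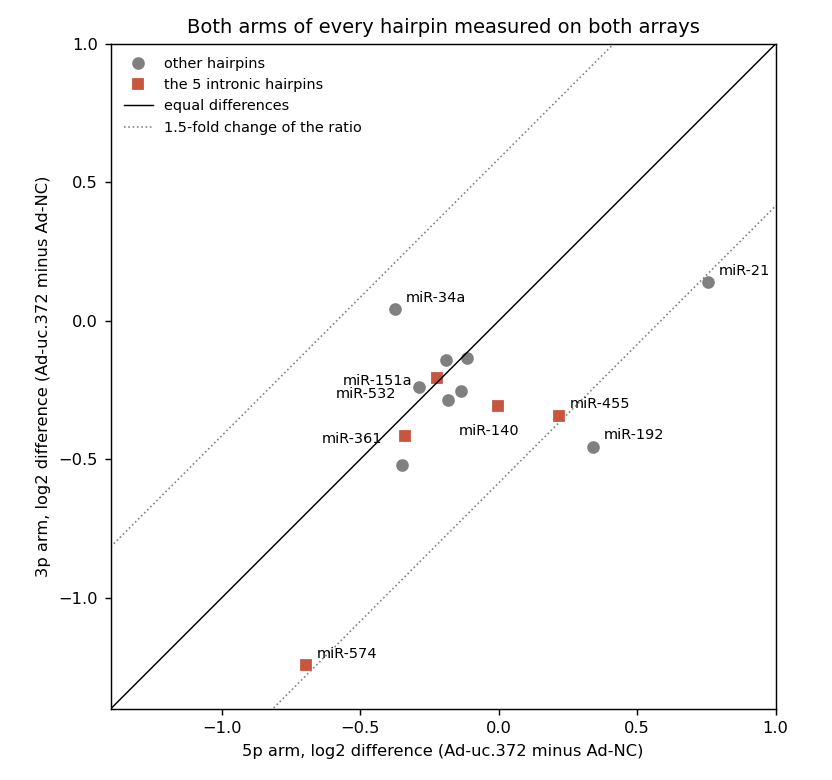
Log2 difference of the 3p arm against that of the 5p arm for the 14 hairpins with both arms measured; squares are the 5 hairpins described here, grey points the other 9, the solid line marks equal differences and the dotted lines a 1.5-fold change of the arm ratio. The other 9 are not a set without intronic hairpins, as miR-532 is among them. miR-574 is the lowest point on both axes, and miR-574, miR-455, miR-21 and miR-192 lie nearest to or beyond the dotted line on the right, which marks a shift towards the 5p arm.

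Among 33 further hairpins listed as intronic, 25 had an arm measured on both arrays, with 26 arms in all, and only miR-532 had both. None of the 26 arms was past 1.5-fold in either direction, while 20 were lower and 6 higher, beside 73.8% lower among all measured miRNAs. Their median difference was -0.27, close to the -0.26 of the 8 arms outside miR-574. The largest differences among them were miR-107, at -0.49, miR-106b-5p, at -0.43, and miR-483-5p, at -0.41, each of smaller size than that of either arm of miR-574.

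The scaling decided the sign for most arms, but not for miR-574. When all probes set the 75th percentile, every difference rose by 0.48, the median of the 10 arms became 0.16, and 2 arms were lower, both of miR-574. hsa-miR-455-5p was then past 1.5-fold on the higher side, at 0.70, and hsa-miR-574-5p was at -0.21. Over 17 alternative settings hsa-miR-574-3p stayed between -1.34 and -0.66, past 1.5-fold in all 17. hsa-miR-574-5p ranged from -0.71 to -0.21 and was past it in 9. hsa-miR-455-5p ranged from -0.044 to 0.70, and hsa-miR-140-5p from -0.12 to 0.48. The change of the arm ratio was above 0 in all 17 for miR-574, from 0.21 to 0.85, for miR-455, from 0.22 to 0.65, and for miR-140, from 0.13 to 0.36. The 17 are not separate checks of this ratio. Settings that only shift a whole array cannot change it, and the total signal and the deposited values differ only by such a shift. For miR-574 several filter and floor settings also left it as it was.

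**Figure D5:**
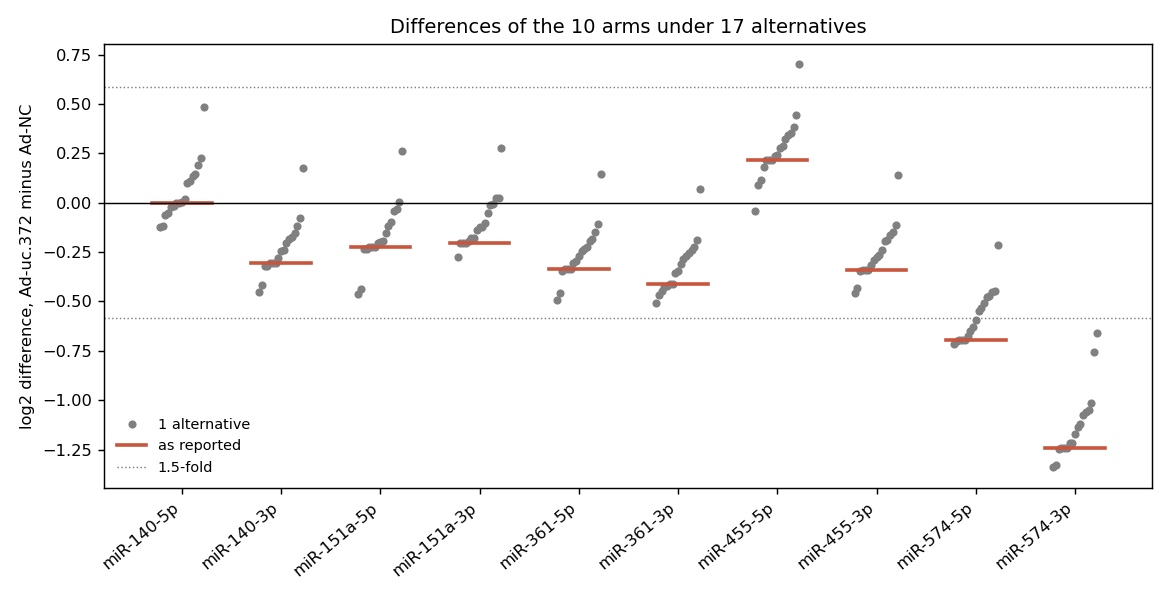
Log2 difference, Ad-uc.372 minus Ad-NC, of each arm as reported (red line) and under each of 17 alternative settings (grey points, sorted), with dotted lines at 1.5-fold. All points of hsa-miR-574-3p lie below the lower dotted line, while those of the 8 arms outside miR-574 lie on both sides of 0.

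In the log2 values that the authors deposited, all 10 arms were detected on both arrays. For them these values equal the log2 of the total signal per miRNA minus a constant of 1.39 on the Ad-NC array and 1.71 on the Ad-uc.372 array. hsa-miR-574-3p was at 3.30 with Ad-NC and 1.95 with Ad-uc.372, and hsa-miR-574-5p at 3.57 and 2.85. hsa-miR-455-5p was at 1.79 and 1.90, and hsa-miR-455-3p at 4.24 and 3.79. In these values 9 of the 10 arms were lower with Ad-uc.372, beside 80.3% of the 279 miRNAs detected on both arrays. The arms past 1.5-fold were both of miR-574, beside 11.5% of the 279.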

How the data were processed

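Cy3-labelled total RNA of HepG2 cells was measured on Agilent human miRNA Microarrays V21.0, 1 for each vector, which shared a slide and a scan. The authors read the images with Agilent Feature Extraction, version 10.10 in the processing notes and 11.5.1.1 in the file header, on a grid annotated to hg19. Per the file headers, the deposited intensity of a spot is background-subtracted and not normalized between arrays. The authors also deposited log2 values, normalized with GeneSpring GX according to the methods, by a kind of normalization not given in the sources used here. These had medians of -4.71 and -5.04 over all rows.

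The members and gene lists were chosen with earlier results of these data known. Arms were matched by name among spots that are not controls. Outlier spots were left out (8 and 10 of the 200 member spots on each array), spots under the limit were raised to it, log2 values were averaged over spots, and levels were set against each array's 75th percentile over probes measured on both. A miRNA is the mean over its probes measured on both arrays. The combined spot SD is the square root of the mean over probes of the summed variances of both arrays, and for an arm ratio that of both arms together. All members were named, with the 2 other hairpins of largest arm ratio change in each direction, the miRNAs next to the threshold, and up to 3 examples of other intronic hairpins. miR-4668-5p was named after its value was seen. Sequences and start sites came from RefSeq on GRCh38.p14, and hairpins were folded with ViennaRNA 2.7.2. The steps returned known changes laid over simulated spots built from the Ad-NC array. The median of the unchanged miRNAs was subtracted before that check, so it did not test the scaling between arrays. Alternatives changed the scaling, background correction (normexp with an offset of 50, limma 3.58.1 in R 4.3.3), summary, filter, floor, outliers, probes, spots and threshold. Python 3.11.15 with numpy 2.4.6, pandas 2.3.3, statsmodels 0.14.6 and matplotlib 3.10.9 was used.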

Additional observations from a re-analysis of the deposited data

How the results depend on the processing

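The count of arms past 1.5-fold was 2 as reported. It was 1 with quantile normalization, without scaling, with lowess on brightness, with normexp, with the total signal per miRNA, with any spot enough for a probe to count as measured, with the brightest probe alone and with a 2-fold threshold, and hsa-miR-574-3p was the arm left each time. In the first 7 of these hsa-miR-574-5p came short of 1.5-fold, and under the 2-fold threshold it was short of 2-fold by its own size. The 75th percentile over all probes kept the count at 2 with hsa-miR-455-5p in place of hsa-miR-574-5p, and turned the median of the 10 arms to 0.16. Under the other 16 settings that median stayed below 0, the lowest being -0.46. Against the reported scaling, the median of all measured miRNAs moved by 0.48 with that percentile, by 0.10 with the median, by 0.17 with lowess, by 0.16 with quantile normalization and by 0.23 without scaling. The share of measured miRNAs that were lower, 73.8% as reported, was 8.73% with that percentile, 60.7% with the median, 42.4% without scaling, 49.8% with lowess, 50.7% with quantile normalization, 49.1% with the total signal and 86.5% with normexp. With no filter on dim probes it was 98.3% of all 2549 miRNAs. A probe with every spot raised to the limit on both arrays is given a difference of -0.52, as was the second probe of hsa-miR-361-3p. The count of all miRNAs past 1.5-fold was 9 as reported and ranged from 3 to 37. The change of each hairpin's arm ratio moved by less than its combined spot SD in all 17 settings, some of which cannot alter it because they only shift a whole array. It still depended on the background correction. With normexp it fell from 0.54 to 0.21 for miR-574 and from 0.56 to 0.22 for miR-455. The value of 0.21 lies within the reported combined spot SD of miR-574, 0.34. The change of the ratio reached 1.5-fold for miR-455 in 1 setting and for miR-574 in 3. No replicate could be left out, and no block for slide or scan could be fitted. No paired analysis was possible because the vectors were measured on 1 array each. Dim signals limit what can be seen, as 4 of the 20 member probes had spots under the limit with Ad-NC. The causes of these shifts were not tested.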

Other observations

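Where both probes of an arm were measured on both arrays, the brighter probe gave the lower difference in 6 of 8 arms. The exceptions were hsa-miR-151a-3p and hsa-miR-574-5p. The median of the brighter minus the dimmer probe was -0.18 over these 8 arms. Over all 150 miRNAs with 2 measured probes the brighter probe was the lower in 99, or 66%, and the median was -0.060. The arms in which the brighter probe lay furthest below the dimmer were hsa-miR-151a-5p, at -0.44 against -0.0093, and hsa-miR-361-5p, at -0.46 against -0.22, whereas in hsa-miR-574-5p the dimmer probe was lower, at -0.91 against -0.48.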
